A study of Mus musculus with 6 samples.

Results

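Glutamine and amino acid transport is covered by 9 listed genes, chosen by name but with earlier results of these data known. They are the transporters SLC1A5, SLC38A2 and SLC7A5 with its partner SLC3A2, and the enzymes GLS2, GLUL, ASNS, GOT1 and GOT2. Of these, 8 genes had a probe set with a single gene symbol, among 18417 genes in all; GLS2 was not analysed here. Where a gene had several probe sets, the brightest one over the 6 arrays stood for it.

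The tumours grew from SK-N-BE(2) cells, a human neuroblastoma line that carries extra copies of MYCN, placed in the adrenal gland of NSG mice. NSG is an immunodeficient strain without mature lymphocytes, and every tumour of both groups grew in it. In the BL-8040 group (3 mice), this CXCR4 inhibitor was given under the skin at 400 µg, starting 7 days after the cells were injected and continuing on 14 consecutive days. The control group (3 mice) is described as control, but the BL-8040 dosing text also stands on its samples, and groups were taken from the titles. The age of the mice and what the controls were given are not stated in the sources used here. Each tumour was read on a single human array, so every value is a log2 signal from 1 mouse, and the tumours come from 1 cell line. The labels name the organism of the host, mouse, whereas array and tumour cells are human; mouse RNA is seen only where it hybridises with the human probes. In such bulk samples, fewer cells of a type and less RNA per cell cannot be told apart.

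Glutamine is the most abundant amino acid in blood and a source of nitrogen and carbon for growing cells. SLC1A5 and SLC38A2 bring it in, and the SLC7A5 and SLC3A2 pair can send it out again in exchange for leucine and other large neutral amino acids. Inside the cell, GLUL makes it from glutamate and ammonia, ASNS spends it to make asparagine, and the transaminases GOT1 and GOT2 link glutamate to aspartate in the cytosol and in mitochondria. In neuroblastoma, MYCN is known to drive genes of glutamine uptake and use, and lack of amino acids raises several of the members through the transcription factor ATF4.

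One array stood apart. The first principal component of all genes held 37.2% of the variance and put BL-8040 replicate 3 at -22.7. BL-8040 replicates 1 and 2 stood at -0.743 and 2.12, and control replicates 1, 2 and 3 at 3.71, 10.1 and 7.54. All treated arrays thus lay below all controls on it, BL-8040 replicate 3 by far the most. All 9 measured neuroblastoma cell markers were well in the range of bright genes (6-array means from 7.30 to 10.0) and all 9 had their lowest value in that array, where their summed linear signal was 2877 against 4070 to 5513 in the controls. The 9 measured hypoxia markers also had their lowest values there. Without that array both lists still had a median difference (BL-8040 minus control) below 0. It went from -0.24 to -0.15 for the neuroblastoma markers and from -0.35 to -0.20 for the hypoxia markers (all genes -0.02 and -0.01). Over 6 arrays all 9 markers of each list were lower after BL-8040, and 0 had an adjusted p under 0.05 in limma. Results for the members are therefore given with and without BL-8040 replicate 3.

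None of the measured members passed the test between BL-8040 and control tumours. In limma, 0 of the 8 measured members had a Benjamini-Hochberg adjusted p under 0.05, against 0 of all 18417 genes (0%), and 0 members against 1422 genes (7.72%) had an unadjusted p under 0.05. The members' adjusted p lay between 0.662 and 0.992. The treated and control values overlapped in every one of the 8. They did not overlap in 14% of all genes, and 8 members are too few to be set apart from that share. With the mean of probe sets, the groups of SLC1A5 did not overlap. Differences (BL-8040 minus control, log2) were below 0 in 6 members and above 0 in 2 (in 8 and 0 after quantile normalization), with a median of -0.04 against -0.02 over all genes, of which 58.5% were below 0. All 8 had their lowest treated value in BL-8040 replicate 3, as 45.5% of all genes did, and in 7 members it lay below all controls. This is described after the single genes.

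**Figure D1:**
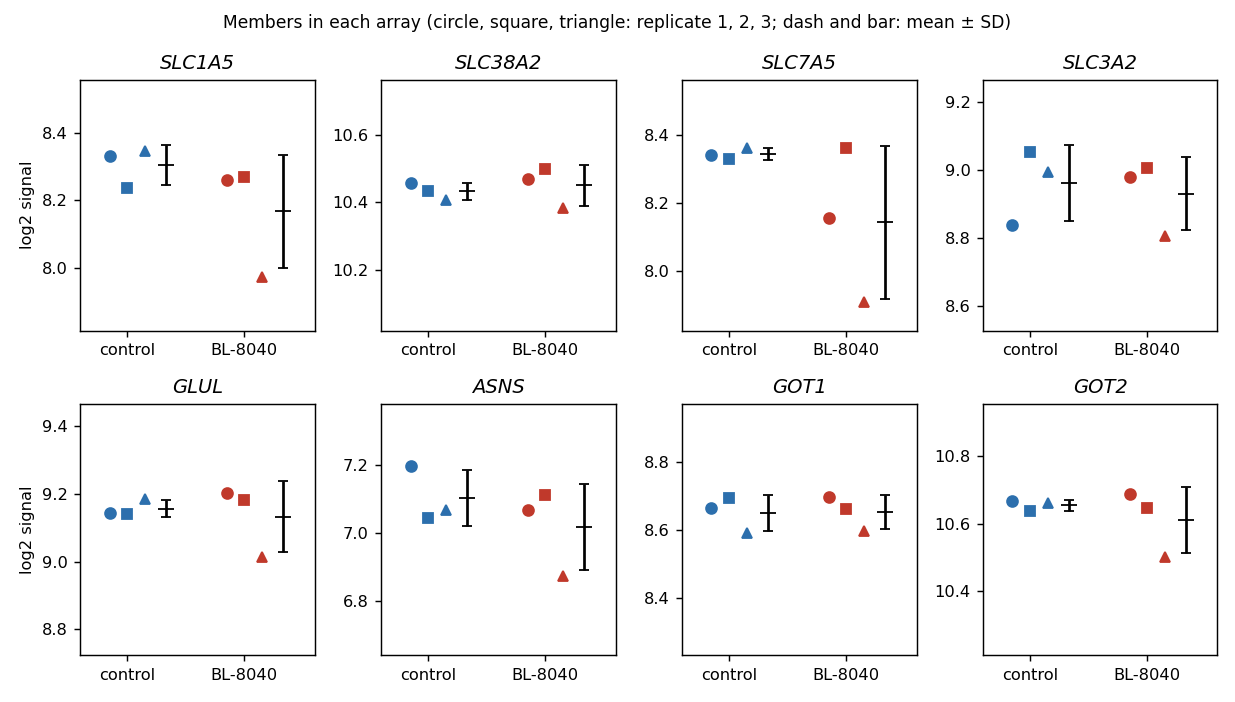
Log2 signal (vertical axis, same span in every panel) of the 8 measured members in the 3 control and 3 BL-8040 tumours, with each group's mean and SD beside the points. The groups overlap in all 8 panels, and the triangle of BL-8040 replicate 3 is the lowest point in 7 of them.

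SLC1A5, the sodium-coupled transporter ASCT2 that takes up glutamine, read 8.26, 8.27 and 7.97 in the tumours of BL-8040 replicates 1, 2 and 3, in that order. The control tumours, in the same order, read 8.33, 8.24 and 8.35. Only BL-8040 replicate 3 lay below the controls; the other treated arrays fell within the control range. The group means were 8.17 ± 0.17 and 8.30 ± 0.06 (SD, n = 3 each), a difference of -0.14 ± 0.09 (SE) with a 95% interval from -0.35 to 0.08 and a limma adjusted p of 0.710. Without BL-8040 replicate 3 the difference was -0.04 ± 0.07 (SE).

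A second probe set annotated to SLC1A5, dimmer and built on other transcript accessions, read 6.07, 5.91 and 5.88 after BL-8040, against control values of 6.14, 6.32 and 6.24. Here all 3 treated values were below all 3 controls, and the low values were not limited to BL-8040 replicate 3. The difference was -0.28 ± 0.09 (SE), with an adjusted p of 0.660 over all 33297 probe sets (limma). The 2 SLC1A5 probe sets thus pointed the same way but disagreed on whether the groups overlap. With the mean of both probe sets in place of the brighter one, SLC1A5 stood at -0.21 ± 0.08 (SE), with an unadjusted p of 0.0303 and an adjusted p of 0.643.

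SLC38A2, the SNAT2 carrier of small neutral amino acids that starved cells induce, was among the steadiest members. Treated tumours read 10.47, 10.50 and 10.38, and control tumours 10.46, 10.43 and 10.41. The values interleaved, with means of 10.45 ± 0.06 and 10.43 ± 0.03 (SD, n = 3 each), and differed by 0.02 ± 0.07 (SE; limma adjusted p = 0.951). Its 95% interval ran from -0.14 to 0.17, or 0.907 to 1.13 times the control level. Without BL-8040 replicate 3 the difference was 0.05, and the 2 remaining treated values lay above the 3 controls.

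SLC7A5, the LAT1 light chain that exchanges large neutral amino acids such as leucine, had the largest difference and the largest spread of the members. Treated tumours read 8.16, 8.36 and 7.91, and control tumours 8.34, 8.33 and 8.36. The 3 controls lay close together, with an SD of 0.02, and the treated arrays spread out below them, with BL-8040 replicate 2 back at the control level. The means were 8.14 ± 0.23 and 8.34 ± 0.02 (SD, n = 3 each), a level of 0.869 times that of the controls. The difference of -0.20 ± 0.11 (SE) had a 95% interval from -0.45 to 0.05, a limma adjusted p of 0.662 and an exact permutation p of 0.3, where 3 against 3 arrays cannot give less than 0.1. It went to -0.09 without BL-8040 replicate 3. Leaving out BL-8040 replicate 2, the treated array at the control level, necessarily enlarged it, to -0.31 (limma unadjusted p = 0.0123, adjusted p = 0.577). In that fit 1484 of the 18417 genes had an unadjusted p under 0.05. The other fits with 1 array left out gave SLC7A5 an unadjusted p between 0.148 and 0.344 (limma).

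SLC3A2, the heavy chain CD98hc that carries SLC7A5 and related light chains to the cell surface, did not follow the SLC7A5 pattern closely. Treated tumours read 8.98, 9.01 and 8.81, whereas control tumours read 8.84, 9.05 and 8.995. Control replicate 1 was nearly as low as BL-8040 replicate 3, and no treated value left the control range except that one. Means were 8.93 ± 0.11 and 8.96 ± 0.11 (SD, n = 3 each), and the difference was -0.03 ± 0.09 (SE; limma adjusted p = 0.929). In control replicate 1 SLC7A5 stood 0.10 above and SLC3A2 0.11 below its own 6-array mean.

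GLUL, glutamine synthetase, was 9.20, 9.18 and 9.01 in treated tumours, against 9.14, 9.14 and 9.19 in control tumours. The other treated arrays stood beside or just above the highest control, and BL-8040 replicate 3 below the lowest. The means, 9.13 ± 0.10 and 9.16 ± 0.03 (SD, n = 3 each), differed by -0.02 ± 0.08 (SE; limma adjusted p = 0.940). A second GLUL probe set gave -0.04 ± 0.09 (SE), again with its lowest value, 7.83, in BL-8040 replicate 3.

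ASNS, asparagine synthetase, which takes its amide nitrogen from glutamine and is a classic ATF4 target, read 7.07, 7.11 and 6.87 after BL-8040. The controls read 7.20, 7.04 and 7.07, so that the treated replicates 1 and 2 fell inside the control range. Means of 7.02 ± 0.13 and 7.10 ± 0.08 (SD, n = 3 each) gave a difference of -0.09 ± 0.09 (SE; limma adjusted p = 0.794), and of -0.01 without BL-8040 replicate 3.

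GOT1, the cytosolic aspartate transaminase, had the smallest range over the 6 arrays, 0.11 log2 units (its SD was 0.046, against 0.042 for SLC38A2). Its values were 8.70, 8.66 and 8.60 after BL-8040 and, in control tumours, 8.66, 8.69 and 8.59, the only member whose lowest value was a control. The difference was 0.0031 ± 0.07 (SE), with a 95% interval of 0.897 to 1.12 times the control level and a limma adjusted p of 0.992. GOT2, the mitochondrial form, read 10.69, 10.65 and 10.50 after BL-8040, against control values of 10.67, 10.64 and 10.66. Its 3 controls and BL-8040 replicates 1 and 2 lay within 0.0505 log2 units, and BL-8040 replicate 3 was 0.159 below the mean of those 5. The GOT2 difference was -0.04 ± 0.08 (SE; limma adjusted p = 0.885).

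**Figure D2:**
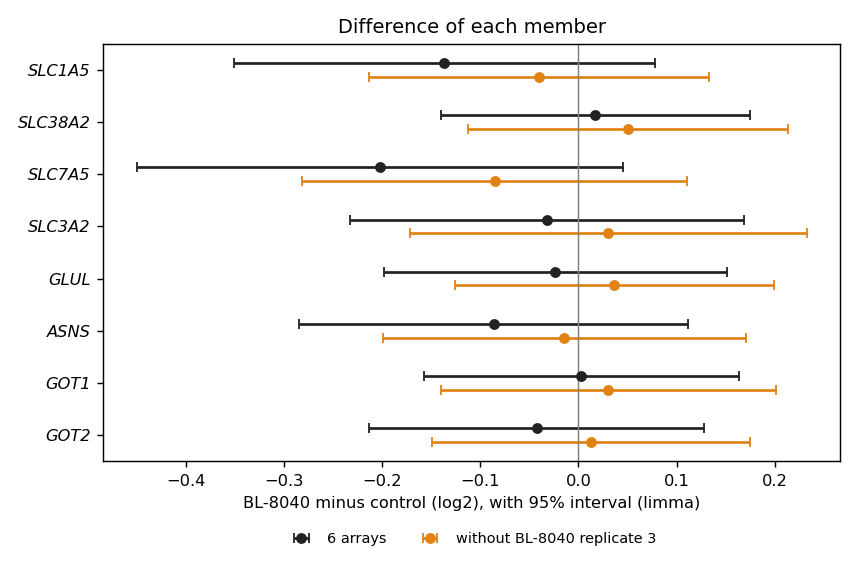
Difference of each member (BL-8040 minus control, log2) with its 95% interval from limma, over 6 arrays and without BL-8040 replicate 3. All 16 intervals include 0, and 5 of the 8 differences lie above 0 once that array is left out.

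Precision is limited by the 3 arrays in each group. Over the 8 members the 95% intervals ran from 0.732 times the control level (SLC7A5, lower bound) to 1.13 times (SLC38A2, upper bound), and the median interval reached 0.19 log2 units to each side.

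BL-8040 replicate 3 held the lowest treated value of all 8 members, as it did in 45.5% of all genes, and the lowest of all 6 values in 7 members. Across all genes this array was the lowest of the 6 in 30.5%, and in 38.3% of the 9209 genes at or above the median signal, where every member lies. Relative to each gene's own 6-array mean, the median of the 8 members was -0.14 in BL-8040 replicate 3, against -0.03 for all genes, and between 0.0013 and 0.045 in the other 5 arrays. The size of the dip differed among members: against the mean of the other 5 arrays it was -0.40 for SLC7A5, -0.31 for SLC1A5 and -0.22 for ASNS, but -0.07 for SLC38A2 and -0.06 for GOT1. Without this array the members' median difference went from -0.04 to 0.02 (all genes -0.01), with 3 members (and 54.6% of all genes) below 0, 5 members above 0 and a smallest limma adjusted p of 0.864. Since 1 mouse makes up this pattern, it was given no test. The neuroblastoma and hypoxia marker signals were also lowest in this array. Relative to the 6-array mean, the medians of these marker lists were highest in control replicate 2 (0.30 and 0.45). The members' median there was 0.0013. The part of these markers in the members' pattern was not tested.

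**Figure D3:**
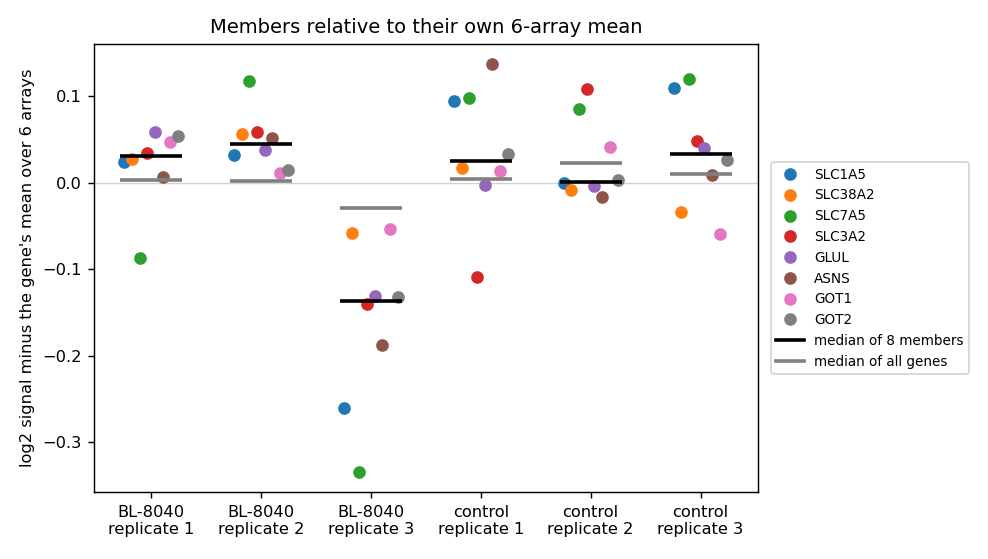
Log2 signal of each member minus its own 6-array mean (vertical axis), by array, with the median of the 8 members in black and of all genes in grey. The members' median is -0.14 in BL-8040 replicate 3 and lies between 0.0013 and 0.045 in the other 5 arrays.

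Markers of cell types other than neuroblastoma were compared across the same arrays. Array and tumour cells are human, so the tumour cells may give these signals too. Which cells gave them was not tested. Of the 10 fibroblast markers 6 had their highest and 3 their lowest value (DCN, PDGFRB and THY1) in BL-8040 replicate 3, and the list's summed linear signal was 4505 to 4847 after BL-8040 and 4398 to 4634 in controls. For the 10 endothelial markers the sums were 937 to 1159 and 820 to 885. EMCN (endomucin), the single one of them above the median signal, made up most of each sum and differed by 0.35. By contrast, 6 of the 10 were lower and the list's median difference was -0.05. The sums were, for the 10 myeloid markers 537 to 597 and 543 to 564, and for 9 adrenal cortex markers 229 to 246 and 223 to 233. The brightest marker weighs most in each sum: PTPRC among the myeloid (6-array mean 8.01) and FDX1 among the adrenal cortex markers (6.27). No marker is listed at 0 in log2 values of this kind; 9 of the 10 endothelial, 7 of the 10 myeloid and 8 of the 9 adrenal cortex markers lay below the median signal. Whether host cells bear on the members' values was not tested.

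The members also differed in how alike their array profiles were. By the root mean square distance between profiles centred on the 6-array mean, over 6 arrays, GLUL and GOT2 were the closest pair of members (0.019 log2 units), and GOT1 and SLC38A2 the next (0.031). The subunits SLC7A5 and SLC3A2 were 0.132 apart, farther than SLC7A5 and SLC1A5 (0.074). Profiles of larger amplitude lie farther apart by this measure, which describes these 6 arrays only.

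Among genes outside the list with an SD over the arrays at least 0.5 times that of the member, those nearest to SLC7A5 were KDM4B, a histone demethylase (0.022), PRNP, the prion protein (0.028), and ZNF550 (0.031). KDM4B read 7.27, 7.46 and 7.02 after BL-8040, against control values of 7.40, 7.39 and 7.42. Its treated arrays had the same order as those of SLC7A5, a likeness that choosing the nearest profile brings by itself. Nearest to SLC1A5 were TMEM42 (0.016), WDR3, a ribosome biogenesis factor (0.017), and PFKM, the muscle-type phosphofructokinase (0.018). Nearest to ASNS were FOLR3 (0.012), LMNB2, lamin B2 (0.015), and RIOX2 (0.018). Since the 3 members themselves deviate most in BL-8040 replicate 3, this choice favours genes that are low in that array.

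Other genes of the pathway were read from 4 lists. Of 24 measured enzymes of glutamine and glutamate metabolism, 0 passed the limma test over all genes; 8 were higher and 16 lower, with a median difference of -0.04 (all genes -0.02). Groups did not overlap in 4 of the 24, or 16.7%, against 14% of all genes. CTPS1, the CTP synthase that takes nitrogen from glutamine, read 8.20, 8.24 and 8.37 after BL-8040, against control values of 8.08, 7.91 and 7.92, with all treated values above all controls. Its difference was 0.29 ± 0.08 (SE; unadjusted p = 0.00589, adjusted p = 0.644, limma), and 0.24 without BL-8040 replicate 3. GAD2, which makes the transmitter GABA from glutamate, differed by -0.34 ± 0.09 (SE; adjusted p = 0.644, limma), at a mean signal in percentile 18.1 of all genes.

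Of 36 other amino acid transporters, 15 were higher and 21 lower, 0 passed and the median difference was -0.0054, which turned to 0.0098 without BL-8040 replicate 3. SLC6A15, a carrier of neutral amino acids in neurons, had the largest difference, -0.37 ± 0.16 (SE; limma adjusted p = 0.644), with 4.92, 4.92 and 4.31 after BL-8040 against 5.22, 5.04 and 5.001 in control tumours. Leaving out BL-8040 replicate 3 took it to -0.17. The mean signal of SLC6A15 was in percentile 31.9 of all genes. SLC1A2, a glutamate transporter best known from astrocytes, differed by -0.18 ± 0.07 (SE), and SLC7A7, another light chain of SLC3A2, by 0.35 ± 0.15 (SE). Both had an adjusted p of 0.644 (limma) and mean signals below percentile 10 of all genes (8.70 for SLC1A2, 9.24 for SLC7A7).

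The amino acid response list holds ATF4, its sensor kinase and ATF4 target genes. Of its 28 genes 7 were higher and 21 lower, with a median of -0.06 (all genes -0.02) and 0 passing. Its lowest values fell in BL-8040 replicate 3 in 17 of 28 genes (60.7%). The share was 30.5% of all genes and 38.3% of those at or above the median signal, and 5 of the 28 lay below that signal. Without this array the list's median was -0.0067 (all genes -0.01). PHGDH, the first enzyme of serine synthesis, read 10.20, 10.11 and 10.06 after BL-8040, against control values of 10.30, 10.30 and 10.27. All its treated values lay below the controls, but the difference of -0.16 ± 0.07 (SE) had a limma adjusted p of 0.644; without BL-8040 replicate 3 it was -0.13. CTH, a cysteine-making enzyme, differed most within the list, by -0.21 ± 0.12 (SE; adjusted p = 0.663, limma), and by -0.12 without BL-8040 replicate 3. Its mean signal was in percentile 28.5 of all genes.

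Amino acid sensing by mTORC1, the growth kinase complex that leucine and arginine switch on, was read from 19 genes. Of these 8 were higher and 11 lower, 0 passed and the median was -0.04, which turned to 0.01 without BL-8040 replicate 3. CASTOR1, an arginine sensor that restrains mTORC1, lay in percentile 38.0 of all genes by mean signal. It had the largest difference, -0.42 ± 0.15 (SE; unadjusted p = 0.0239, adjusted p = 0.644, limma). It read 5.38, 5.13 and 4.73 after BL-8040, against control values of 5.32, 5.59 and 5.60, so that the groups overlapped through BL-8040 replicate 1, and the difference was -0.25 without BL-8040 replicate 3.

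**Figure D4:**
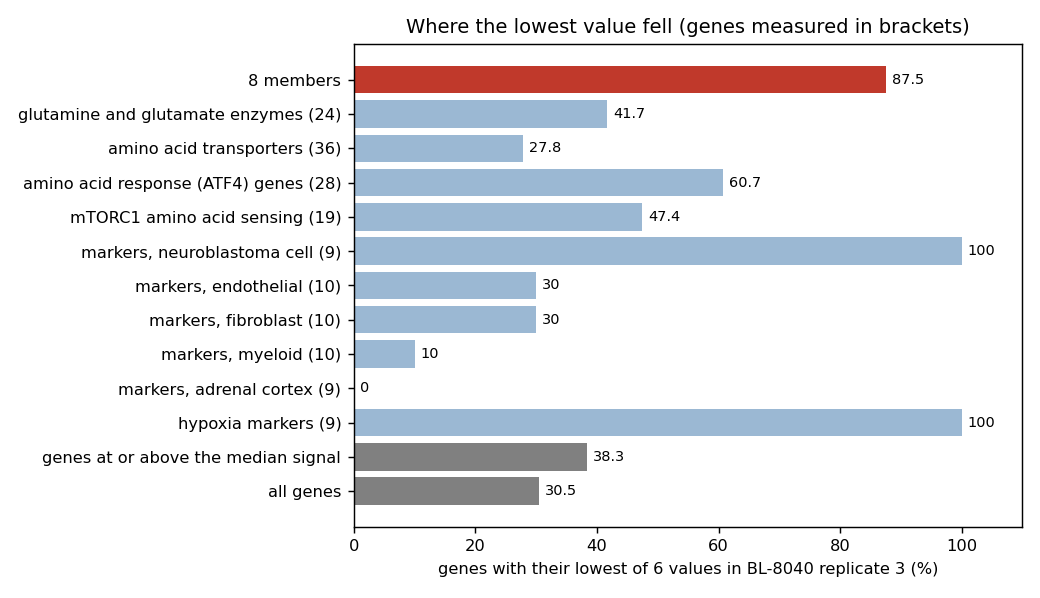
Share of genes (horizontal axis, %) whose lowest of 6 values was that of BL-8040 replicate 3, for the 8 members, the pathway and marker lists and all genes. The share is 30.5% over all genes and 38.3% over genes at or above the median signal. It is 7 of 8 in the members, 60.7% in the amino acid response list and 27.8% in the other amino acid transporters.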

How the data were processed

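The authors deposited log2 values, 1 for each probe set in each array. The submitters' processing notes list Partek 6.6 (background correction, normalization and probe summarization: not given in the sources used here). RNA (200 ng per tumour) was hybridised to human gene arrays, per the labels' protocols. Groups and replicate numbers came from the sample titles. Symbols came from the platform annotation (19460 probe sets with 1 symbol, 1754 with several, 12083 without); the brightest of several probe sets per gene was kept. No further normalization and no filter on dim genes was applied, and no detection call was made.

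All 18417 genes were fitted with lmFit and eBayes of limma 3.58.1 (R 4.3.3), two-sided. A gene was called at a Benjamini-Hochberg adjusted p under 0.05 over this whole table. The steps were run on simulated data with normal noise of equal spread in both groups and no outlying array. The differences planted there were larger than those of the members, so that run cannot tell whether differences of the members' size would be called. SE is limma's moderated standard error. The labels give mice, so the spread includes that between animals. The members and lists were chosen with earlier results of these data known. Named genes were the members and, per list, up to 3 per direction with the smallest unadjusted p under 0.05 and the largest difference, besides the 3 nearest profiles for the 3 members of largest range. The alternatives tried were quantile normalization, median centring, averaging the probe sets of a gene, removal of genes under the median signal or under log2 6, array weights, robust moderation with a trend, a replicate block, a threshold of 0.1 and leaving out each array. No human sequence was used here.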

Additional observations from a re-analysis of the deposited data

How the results depend on the processing

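Under 15 alternatives, limma called 0 genes and 0 members each time, and the smallest adjusted p of any member was 0.577. The members' median difference lay between -0.07 and 0.02 with 1 array left out. The number of members whose groups do not overlap went from 0 to 1 with the mean of probe sets (SLC1A5), and was 0 to 1 with 1 array left out (SLC7A5 without BL-8040 replicate 2, SLC38A2 without BL-8040 replicate 3, SLC1A5 without control replicate 2), where 2 against 3 arrays do not overlap in 21.5% to 29.5% of all genes. Of 112 recomputed member differences 11 changed sign, all of them near 0: with quantile normalization GOT1 went to -0.0078 and SLC38A2 to -0.0050, and with array weights GLUL to 0.017. With 1 array left out GOT1 ranged from -0.026 to 0.031, SLC38A2 from -0.0069 to 0.051, SLC3A2 from -0.094 to 0.031, GLUL from -0.059 to 0.037 and GOT2 from -0.080 to 0.013; the cause was not tested. With the replicate number as a block (replicate block), 0 members were called, the median stayed at -0.04 and SLC7A5 had an adjusted p of 0.653 (limma). The deviations of same-numbered arrays from their group means correlated at -0.04, 0.02 and 0.08 over genes. Those of differently numbered arrays correlated between -0.09 and 0.07. With 3 arrays per group these values cannot settle whether mice were paired. The numbers were not taken to pair them.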
